A study of Mus musculus with 12 samples.

Results

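The diet response of normal gonadal fat was described across all measured genes, from 6 of the 12 mRNA-sequencing libraries of the series. These are 3 libraries of wild-type (WT) mice on a high-fat diet (HFD) and 3 of WT mice on a normal chow diet (NCD), taken by the genotype and diet in the header of each column. All were male C57BL/6 mice given their diet for 16 weeks from the age of 8 weeks. The other 6 libraries, 3 on HFD and 3 on NCD, are of C57BL/6 males of the same ages and diets that lack the microRNA gene Mir10a (KO). They share 1 estimate of the spread per gene with the WT libraries in the fit and are described only beside genes named for WT. The labels call them biological replicates, keep the mice on a light cycle with free access to food, and give neither the make-up of the diets nor the time of day at which fat was taken. Libraries are called by group and the number in the column header, which runs 1, 2 and 4 on both diets, and 3 values in a row stand in that order.

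Gonadal white fat of male mice surrounds the epididymis and stores triglyceride in large adipocytes. Fibroblast-like progenitors, vessels, leukocytes and a mesothelial covering share the tissue. During long fat feeding adipocytes enlarge, some die, and macrophages gather around them and digest the remains in lysosomes. Gonadal fat is known as the mouse depot in which this remodelling is most marked. Bulk libraries mix all these cells, so that fewer cells of a type and less RNA per cell cannot be told apart.

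Levels are FPKM, fragments scaled to transcript length and library size. A change is the difference of log2(FPKM + 1) between HFD and NCD from limma, which understates the ratio of genes below a few FPKM. "Rose" and "fell" are used for an adjusted p under 0.05 (Benjamini-Hochberg over 14340 genes). Genes below 1 FPKM in 10 or more of the 12 libraries were not tested. A gene under 1 FPKM in every chow library of both genotypes was thus tested only through its HFD values. Such a gene could hardly have been called lower. Among genes named below these include Gpr50, Cck, Otop1, Itgad, Dcstamp, Pvalb, Rgs1, Il1rn, Mmp3, Col12a1, Dhrs9, Kcnj2, Cd22 and Ccr7. Positions are those of mm10.

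The defining adipocyte markers were abundant in both groups, but lower on HFD. Of 8 tested, 6 fell and 0 rose (median change -0.96), against 25.3% lower among all tested genes. Fabp4, the fatty acid carrier of adipocytes, was at 11287, 11487 and 8778 FPKM in WT_HFD and 14246, 14920.5 and 14087 FPKM in WT_NCD. It was not called. Some chow libraries also held transcripts of neighbouring tissue. The summed FPKM of the ciliated epithelium markers was 51.6, 42 and 51.8 in WT_HFD and 43.4, 122 and 99 in WT_NCD, so WT_NCD 2 and WT_NCD 4 stood above the rest. Epididymis and efferent duct markers summed to 0.391, 0.589 and 0.308 in WT_HFD and 0.554, 8.17 and 5.16 in WT_NCD. A list of 15 liver genes, written after the values were seen, summed to 2.95, 269 and 123 in WT_HFD and 174, 1395 and 425 in WT_NCD, highest in WT_NCD 2 and lowest in WT_HFD 1. Haemoglobin genes and other red blood cell markers summed to 996, 1487 and 652 in WT_HFD and 1429, 2046 and 2075 in WT_NCD. The part of these admixtures in single results was not tested beyond the fits without a library or with a marker covariate.

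High-fat feeding moved about as many genes up as down, but the large changes were mostly rises. Of 14340 tested genes, 25.4% rose and 25.3% fell, 50.8% in all, and the median change over all genes was -0.03. The counts of gene lists below are to be read against these shares. Among genes called with a change of at least 1, which were 11.3% of those tested, 1004 rose (7.0%) and 613 fell (4.27%). At a change of at least 3 the counts were 64 and 12. Both shares were smallest among the least abundant genes: genes with a mean under 2 FPKM had 20.9% higher and 23.7% lower. Genes at 50 to 200 FPKM had 30.2% and 27.8%, and genes of at least 200 FPKM had 26.4% and 31.4%. Long non-coding RNAs leaned to falls, with 90 higher and 292 lower of 595 (median -0.42), while protein-coding genes had 26.9% higher and 25.3% lower. Values of the diets did not overlap in 64.5% of tested genes. The count of called genes fell to 3878 without the 3 chow libraries rich in ciliated epithelium (WT_NCD 2, WT_NCD 4 and KO_NCD 2), which leaves 1 WT chow library, and to 3808 with the mesothelial markers, whose sum did not overlap between the WT diets, as a covariate. Of the called genes named below, those not called without the 3 ciliated chow libraries were Bnip3, COX1, Calml3, Ccdc153, Ccn1, Ccn2, Cma1, Csad, Cspg4, Cuzd1, Gabarapl1, Gpihbp1, Hp, Iars, Mcpt4, Nnat, Pgk1, Phgdh, Polr2a, Ptgds, Scd1, Sdc1, Tdo2, Uox and Vegfa. Those not called with the mesothelial covariate were Angptl8, Atp1b1, Bmp4, COX1, Calml3, Ccdc153, Ccn1, Ccn2, Ccr7, Cd200, Cd209a, Cma1, Col4a4, Cuzd1, Esr1, Gabarapl1, Gpihbp1, Hp, Hspa1a, Igfbp2, Krt19, Krt8, Mmp9, Nnat, Nt5e, Polr2a, Ptgds, Ptgis, Sdc1, Tgfb2, Tgfb3 and Uox.

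**Figure D1:**
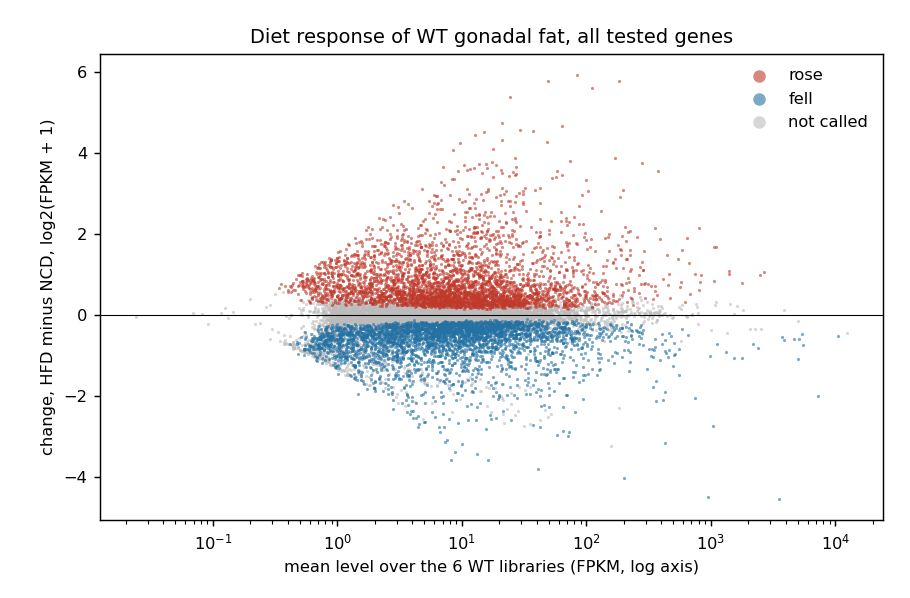
Change with diet in WT fat against the mean level of each tested gene over the 6 WT libraries (log axis, FPKM), with genes that rose in red, genes that fell in blue and genes not called in grey. Most points beyond a change of 3 lie above 0, where 64 called genes stand against 12 below -3.

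The RNA of HFD fat was spread over more genes. The smallest set of genes that made up 50% of the summed FPKM had 350, 343 and 413 genes in WT_HFD and 247, 251 and 248 in WT_NCD. The groups did not overlap, and the chow libraries were nearly alike. The 8 rises that added most FPKM were those of Hp, Ftl1, Ctsd, Psap, Lyz2, Tmsb4x, B2m and Sparc. The haptoglobin gene Hp, whose product binds free haemoglobin, was at 3320.5, 4293 and 3322 FPKM in WT_HFD and 1771, 1493 and 1992 FPKM in WT_NCD. Ferritin light chain, Ftl1, which stores iron, was at 3026, 3119.9 and 3818 in WT_HFD and 1609, 1702 and 1730.4 in WT_NCD. Every HFD value of both genes lay above every chow value. Tmsb4x, which binds actin monomers, averaged 1897 ± 180.5 in WT_HFD and 894 ± 47 in WT_NCD (SD, n = 3 each). Among the 8 falls that took away most FPKM, Car3 was the largest in FPKM. Car3 (NCBI gene 12350, chromosome 3, 14863538 to 14872381), the carbonic anhydrase of adipocytes and muscle, was at 3165, 3639.6 and 2072 in WT_HFD and 12620.2, 11684 and 10423 in WT_NCD (change -2.0, SE 0.34, limma adjusted p = 0.000666). The desaturase gene Scd1 was at 3562, 3942 and 2277 in WT_HFD and 6822, 6787 and 6768 in WT_NCD (-1.1). Neither gene overlapped between the diets, but with quantile normalization the change of Scd1 was -0.39 and was not called (adjusted p = 0.187). The mitochondrial genes COX1, CYTB, ATP6 and COX2 belong to the same 8, and the mitochondrial share of summed FPKM was 12.8, 13.1 and 9.24% in WT_HFD and 14.6, 15.5 and 14.8% in WT_NCD, lowest in WT_HFD 4.

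A small set of genes was nearly silent on one diet only. Under 0.5 FPKM in every chow library and at 3 FPKM or more in every HFD library were 21 genes, and 2 showed the opposite. The rule that chose them used these values, so they are given as a description. Gpr50 (NCBI gene 14765, chromosome X, 71663667 to 71669257), an orphan receptor related to melatonin receptors, was at 15.4, 14.5 and 21 in WT_HFD and 0.0183, 0.0908 and 0.0795 in WT_NCD. Cck, which encodes the gut and brain peptide cholecystokinin and shares much of its span with the predicted gene Gm38661, was at 5.55, 8.66 and 4.02 in WT_HFD and 0.0446, 0 and 0.243 in WT_NCD. Otop1, a proton channel, was at 7.88, 6.73 and 5.57 in WT_HFD and 0.0689, 0.0931 and 0.135 in WT_NCD. These are genes better known from nerve, gut or sensory cells than from fat. Genes of striated muscle were in the set as well. Trdn, which encodes triadin of the calcium release complex, was at 3.5, 3.3 and 4.4 in WT_HFD and 0.0666, 0.0283 and 0.167 in WT_NCD, and the calcium buffer gene Pvalb was at 4.14, 4.3 and 5.3 in WT_HFD and 0.0886, 0 and 0.14 in WT_NCD. The skeletal actin gene Acta1 was at 12.2, 6.8 and 9.41 in WT_HFD and 15.2, 19.7 and 9.29 in WT_NCD and was not called. The set also held genes of macrophages. Dcstamp, needed for fusion of macrophages and osteoclasts, was at 3.65, 3.61 and 5.96 in WT_HFD and 0.231, 0.0695 and 0.257 in WT_NCD. Itgad, an integrin alpha chain of macrophages, was at 19.9, 20.2 and 18 in WT_HFD and 0.0966, 0.0562 and 0.070 in WT_NCD. In the other direction, the tight junction gene Cldn24 was at 0.437, 0.48 and 0.283 in WT_HFD and 4.05, 4.06 and 4.55 in WT_NCD.

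**Figure D2:**
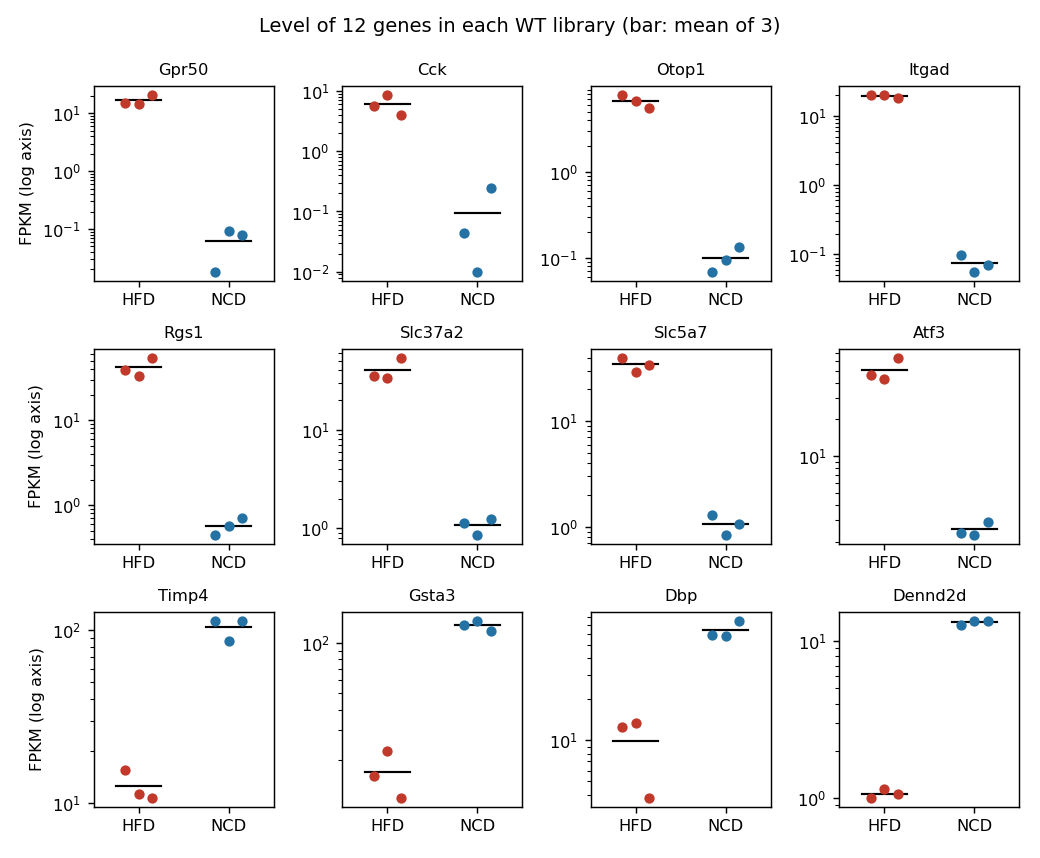
FPKM of 12 genes in each WT library (log axis; HFD libraries left in red, NCD libraries right in blue; the bar is the group mean; values under 0.01 are drawn at 0.01). Gpr50, Cck, Otop1, Itgad, Rgs1, Slc37a2, Slc5a7 and Atf3 lie higher in every HFD library, and Timp4, Gsta3, Dbp and Dennd2d lower.

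The 15 steepest rises that the naming rule kept, outside the best-known macrophage markers and extremes already described, included genes of signalling, proteolysis and transport. Rgs1 (NCBI gene 50778, chromosome 1, 144244669 to 144249104), which shortens G-protein signals in leukocytes, was at 38.4, 32.7 and 54.3 FPKM in WT_HFD and 0.45, 0.566 and 0.712 FPKM in WT_NCD (change 4.73, SE 0.22, limma adjusted p = 2.6e-07). Slc37a2 (56857, chromosome 9, 37229149 to 37255738), a sugar-phosphate exchanger of macrophages, was at 35.4, 33.3 and 54 in WT_HFD and 1.12, 0.864 and 1.24 in WT_NCD (4.31, SE 0.17). Slc5a7 (63993, chromosome 17, 54273590 to 54299038) encodes the choline transporter of cholinergic nerve endings and was at 39.9, 29.4 and 33.9 in WT_HFD and 1.28, 0.84 and 1.07 in WT_NCD (4.09, SE 0.17). Each gene was higher in 3 of 3 HFD libraries than in any chow library, which the naming rule given below required. Rgs1 was under 1 FPKM in every chow library of both genotypes. The surface protease gene Adam8 was at 62.5, 54.5 and 101 in WT_HFD and 2.41, 1.55 and 2.25 in WT_NCD (4.54). Tm4sf19, a membrane protein gene, was at 19, 18.7 and 38 in WT_HFD and 0.233, 0.00457 and 0.263 in WT_NCD (4.42). WT_HFD 4 had the highest value of both. Atf3, a stress-induced transcription factor gene, was at 46.6, 42.5 and 64.1 in WT_HFD and 2.34, 2.28 and 2.92 in WT_NCD (3.87). Saa3, the acute-phase serum amyloid A gene expressed outside the liver, was at 89, 83.9 and 107 in WT_HFD and 5.0, 1.92 and 5.69 in WT_NCD (4.26). Il1rn, which encodes the antagonist of the interleukin-1 receptor, and Timp1, an inhibitor of matrix metalloproteases, rose by 3.69 and 3.78. The others of the 15 steepest rises were Gpr50 (4.06), Mpeg1 (3.78), a pore-forming protein gene of macrophages, Slc15a3 (3.71), a peptide transporter of endosomes, Cd180 (3.71), Arhgap25 (3.7) and Itgad (4.24).

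The 15 steepest falls that the naming rule kept held 2 kinds of gene. The rule left out best-known adipocyte markers and 5 extremes already described, of which 3 fell. It also required that the diets not overlap. One kind was low in every HFD library and high in every chow library. Agt (NCBI gene 11606, chromosome 8, 124556587 to 124569706), the angiotensinogen gene, was at 13.4, 18.2 and 14 FPKM in WT_HFD and 115, 121 and 148 FPKM in WT_NCD (change -2.99, SE 0.29, limma adjusted p = 1.69e-05). Timp4 (110595, chromosome 6, 115244444 to 115252205), the protease inhibitor of fat and heart, was at 15.5, 11.3 and 10.7 in WT_HFD and 113, 86.3 and 114 in WT_NCD (-2.97, SE 0.42), the opposite of its relative Timp1. Dennd2d, which activates small GTPases of the Rab family, was at 1.01, 1.14 and 1.06 in WT_HFD and 12.7, 13.5 and 13.5 in WT_NCD (-2.78). The tight junction gene Cldn22 was at 1.0, 1.12 and 0.655 in WT_HFD and 11.9, 12.6 and 12.2 in WT_NCD (-2.79). The fatty acid activating enzyme gene Acsm3 was at 0.317, 0.559 and 0.229 in WT_HFD and 5.94, 10.5 and 9.38 in WT_NCD (-2.78), lowest of the chow libraries in WT_NCD 1. Timp1, Timp3 and Timp4 lie inside the annotated spans of the synapsin genes Syn1, Syn3 and Syn2. Whether the counting used the strand is not given in the sources used here, so reads of such overlapping genes may be mixed. The other kind followed the libraries with neighbouring tissue. Ccdc153 was at 0, 0.472 and 0 in WT_HFD and 1.44, 28.5 and 22.5 in WT_NCD, and the glandular gene Cuzd1 was at 0.0152, 0.694 and 0.084 in WT_HFD and 2.11, 26.2 and 14.7 in WT_NCD. Calml3, Ptgds and the keratin gene Krt8 had the same shape, with WT_NCD 1 at 1.03, 1.38 and 3.92 and WT_NCD 2 at 27.4, 22.3 and 29.9. Calml3, Ccdc153, Cuzd1 and Ptgds were not called without the 3 ciliated chow libraries, with changes of -0.78, -1.1, -1.34 and -0.87. Leaving out WT_NCD 2, WT_NCD 4 or WT_HFD 4 also ended the calls of Calml3, Ccdc153, Ptgds and Krt8, as did leaving out WT_HFD 1 for Calml3 and Ccdc153 (adjusted p up to 0.107, 0.0807, 0.0658 and 0.066). Krt8, which mesothelium also makes, had -1.13 without the 3 ciliated chow libraries and 0.10 with the mesothelial markers as a covariate.

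Lysosomal genes rose broadly. Of 42 tested genes for lysosomal hydrolases and their activators, 34 rose and 0 fell, with a median change of 0.88. Lipa, the acid lipase that frees fatty acids and cholesterol from swallowed lipid, was at 161, 161 and 236 FPKM in WT_HFD and 21.9, 21.3 and 20.1 FPKM in WT_NCD (3.06, SE 0.17, limma adjusted p = 5.78e-07). Galc, which removes galactose from ceramides, was at 16.5, 17.2 and 19 in WT_HFD and 6.08, 6.12 and 5.73 in WT_NCD (1.41). The cathepsin gene Ctss, an elastin-cutting protease that also trims the MHC class II chaperone, averaged 526 ± 127 in WT_HFD and 38 ± 4.31 in WT_NCD. Acp5, the tartrate-resistant phosphatase of osteoclasts and macrophages, was not called at 144, 152 and 128 in WT_HFD and 186, 179.5 and 176 in WT_NCD. Of 31 genes for the lysosomal membrane and its proton pump, 25 rose and 0 fell (median 0.47). The pump subunits moved unequally: Atp6v1b2 and Atp6v0a1 rose by 1.74 and 1.75, while Atp6v1g1 and Atp6v1h had -0.04 and -0.09 and were not called. The cholesterol carrier gene Npc2 rose by 1.07. Tfeb and Tfe3, related transcription factors that switch on lysosomal genes, rose by 0.85 (SE 0.10) and 0.72 (SE 0.074). In the autophagy list the split was 8 higher and 5 lower of 26, with Uvrag (0.76) and the cargo receptor gene Sqstm1 (0.51) higher and Gabarapl1 (-0.36) lower.

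TFEB and its relatives are known to bind the CLEAR element, whose core reads TCACGTGA. The window of 250 bases before to 50 bases after each gene start was searched for this core, which reads the same on both strands and contains the E-box CACGTG. It stood in 9 of 59 lysosomal genes that have a promoter in the RefSeq table (GRCm38.p6), which is 15.3%, and in 2.18% of 10711 tested genes with one. Over all genes that rose the share was 2.47%, and over those that fell 1.82%. A match of letters is no evidence of binding. Promoters of 3 lysosomal genes that rose are shown because they hold the core, in capitals: the protease gene Ctsd (1.68; chr7:142387778-142388077, minus strand), the galactosidase gene Gla (2.05; chrX:134600956-134601255, minus strand) and the pump subunit gene Atp6v1a (1.41; chr16:44139210-44139509, minus strand), each read on its own strand.
Ctsd: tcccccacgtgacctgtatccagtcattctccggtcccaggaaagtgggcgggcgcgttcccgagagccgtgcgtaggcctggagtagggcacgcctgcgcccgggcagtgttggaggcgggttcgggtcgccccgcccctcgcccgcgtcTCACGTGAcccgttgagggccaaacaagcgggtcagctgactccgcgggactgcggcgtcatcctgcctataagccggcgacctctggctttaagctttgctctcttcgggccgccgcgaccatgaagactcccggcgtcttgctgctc
Gla: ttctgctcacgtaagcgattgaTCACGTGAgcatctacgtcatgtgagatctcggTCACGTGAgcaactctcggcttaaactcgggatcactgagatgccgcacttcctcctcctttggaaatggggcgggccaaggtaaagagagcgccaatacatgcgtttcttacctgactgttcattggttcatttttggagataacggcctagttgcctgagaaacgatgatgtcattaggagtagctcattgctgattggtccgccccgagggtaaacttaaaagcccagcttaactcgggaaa
Atp6v1a: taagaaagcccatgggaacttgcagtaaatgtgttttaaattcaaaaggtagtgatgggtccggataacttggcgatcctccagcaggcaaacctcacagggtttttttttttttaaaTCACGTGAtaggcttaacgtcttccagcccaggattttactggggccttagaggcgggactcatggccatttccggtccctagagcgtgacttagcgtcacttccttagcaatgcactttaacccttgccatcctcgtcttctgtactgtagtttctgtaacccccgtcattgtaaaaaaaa
The core starts 99 bases before the start of Ctsd and 132 before that of Atp6v1a, and Gla holds 2 copies.

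Genes of cell division rose at low absolute levels. Of 36 tested genes of mitosis and DNA replication, 33 rose and 0 fell (median 1.4). Tk1, the thymidine kinase of the S phase, was at 10.2, 11.7 and 13.3 FPKM in WT_HFD and 0.714, 1.14 and 0.883 FPKM in WT_NCD (2.74, SE 0.14, limma adjusted p = 4.04e-07). Cdk1, the kinase that starts mitosis, was at 3.04, 2.92 and 4.43 in WT_HFD and 0.362, 0.366 and 0.341 in WT_NCD (1.7). No value overlapped. Of 37 listed members with measured levels, 36 were tested. Cdk1 and the cyclin gene Ccnb2 were under 1 FPKM in every chow library of both genotypes. These genes were tested only through their HFD values and could hardly have been called lower. The 3 members not called were Cdc45 (0.14), Mcm7 (0.11) and Gins2 (-0.063), all of the replicative helicase. Regulators split, with 19 of 31 higher and 5 lower. Cdkn1a, which encodes the cell cycle inhibitor p21, averaged 64.3 ± 12.6 in WT_HFD and 14.9 ± 2.57 in WT_NCD, while the inhibitor gene Cdkn2c, expressed in adipocytes, averaged 55.3 ± 11.3 in WT_HFD and 153 ± 21.1 in WT_NCD. The growth arrest genes Gadd45b (2.01) and Sesn1 (0.69) rose too.

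Many genes of mitosis carry the cell cycle homology region (CHR), TTTGAA or on the other strand TTCAAA, and CCAAT boxes upstream of it. Of 31 mitosis and replication genes with a RefSeq promoter, 14 held a CHR on either strand (45.2%) and 26 held CCAAT or ATTGG (83.9%). Over all tested genes the shares were 14.7% and 42.8%. Over all genes that rose they were 16.3% and 42.6%. The clock list described below had CCAAT at a similar share (13 of 16, 81.2%), in which 0 held a CHR. The 3 promoters below hold a CHR, in capitals on either strand: Cdk1 (chr10:69352863-69353162, minus strand), the cyclin gene Ccnb2 (1.98; chr9:70421505-70421804, minus strand) and the topoisomerase gene Top2a (2.22; chr11:99024140-99024439, minus strand).
Cdk1: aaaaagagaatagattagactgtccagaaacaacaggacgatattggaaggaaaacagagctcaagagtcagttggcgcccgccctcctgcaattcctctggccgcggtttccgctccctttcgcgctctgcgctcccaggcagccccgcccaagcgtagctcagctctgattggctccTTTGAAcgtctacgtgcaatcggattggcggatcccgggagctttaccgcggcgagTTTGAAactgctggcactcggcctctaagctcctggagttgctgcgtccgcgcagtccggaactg
Ccnb2: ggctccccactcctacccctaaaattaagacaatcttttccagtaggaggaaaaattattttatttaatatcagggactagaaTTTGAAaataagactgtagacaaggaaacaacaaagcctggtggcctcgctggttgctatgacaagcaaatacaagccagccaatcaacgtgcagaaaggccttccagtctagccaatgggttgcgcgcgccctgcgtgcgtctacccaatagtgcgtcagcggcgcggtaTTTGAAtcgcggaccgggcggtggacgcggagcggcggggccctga
Top2a: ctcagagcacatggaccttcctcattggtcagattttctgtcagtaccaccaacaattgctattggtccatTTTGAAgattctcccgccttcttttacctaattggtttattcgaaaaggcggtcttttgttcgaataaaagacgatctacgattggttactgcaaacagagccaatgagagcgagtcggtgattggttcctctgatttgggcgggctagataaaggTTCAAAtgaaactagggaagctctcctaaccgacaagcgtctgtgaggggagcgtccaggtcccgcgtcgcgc
Each of the 3 windows holds 2 matches.

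Genes of protein synthesis, folding and disposal differed by list. Of 61 cytosolic ribosomal protein genes, 0 rose and 1 fell, while 8 rose once mitochondrial transcripts were taken out of the total. Of 38 proteasome genes 5 rose and 4 fell (median -0.02). The immunoproteasome subunit gene Psmb10 rose by 0.58 and the activator gene Psme4 by 0.55. Chaperones were called more often. In the endoplasmic reticulum list 16 of 26 rose and 4 fell. The lectin chaperone gene Calr was at 341, 319.8 and 377 FPKM in WT_HFD and 209, 215 and 189 FPKM in WT_NCD (0.76), while Herpud1 and Syvn1, which help to remove misfolded proteins, fell by 0.70 and 0.41. Among heat shock proteins of cytosol and mitochondria 3 of 19 rose and 7 fell, with the near-identical Hspa1a and Hspa1b at -0.64 and -0.73. Their reads may be split between the copies. Of 21 aminoacyl-tRNA synthetase genes 8 rose, for example Cars (0.51) and Iars (0.64), and 1 fell, the mitochondrial Fars2 (-0.43).

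Genes of mitochondrial fuel burning fell by small steps. Of 25 genes of pyruvate oxidation and the citric acid cycle, 19 fell and 1 rose (median -0.43). Pdha1, a subunit of pyruvate dehydrogenase, was at 79.6, 77.6 and 64.7 FPKM in WT_HFD and 138, 135 and 113 FPKM in WT_NCD (-0.79, SE 0.11, limma adjusted p = 0.000184). The values did not overlap. Of 13 mitochondrially encoded protein genes 9 fell and none rose. The COX1 value of WT_HFD 4 was 6845, against 9477 and 10011 in the other HFD libraries and 12039, 12994 and 12234 in WT_NCD. COX1 lost its call in each fit that left out a WT library other than WT_HFD 2 (adjusted p up to 0.128). The count of falls was 5 without WT_HFD 4, 2 with the liver markers as a covariate and 0 without the 3 ciliated chow libraries. With quantile normalization 2 rose and 3 fell, and COX1 turned to 0.15. The mitophagy genes Bnip3 (-1.05) and Pink1 (-0.79) and the fusion gene Mfn2 (-0.53) fell. Of 22 glycolysis genes 7 rose and 4 fell, shares near those of all tested genes. The leukocyte hexokinase gene Hk3 averaged 20.5 ± 5.63 in WT_HFD and 1.45 ± 0.0296 in WT_NCD, while Hk2, the form of insulin-responsive tissue, averaged 15.8 ± 1.54 in WT_HFD and 25.3 ± 1.94 in WT_NCD. Eno2 rose by 0.96, and Pfkm and Ldhb had -0.74 and -1.66. Of 30 peroxisome genes 14 fell and 2 rose. Phyh, which starts the breakdown of branched fatty acids, fell by 1.3.

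Lipid genes moved both ways within each list. Of 27 sphingolipid genes 10 rose and 2 fell. S1pr2, a receptor for sphingosine 1-phosphate, was at 14, 14.3 and 19.1 FPKM in WT_HFD and 2.74, 2.56 and 2.64 FPKM in WT_NCD (2.19), and the ceramide kinase gene Cerk and ceramidase gene Acer3 rose by 1.89 and 1.8. Kdsr, which takes an early step of ceramide synthesis, fell by 0.81. Eicosanoid genes went both ways, 9 higher and 5 lower of 22. Hpgds, the haematopoietic prostaglandin D synthase, was at 25.2, 24.7 and 33.3 in WT_HFD and 1.52, 1.42 and 1.64 in WT_NCD (3.49, limma adjusted p = 4.08e-08). The thromboxane synthase gene Tbxas1 rose by 2.54. The prostacyclin synthase gene Ptgis had -0.88 and the prostaglandin-degrading Hpgd -0.85, both called. In lipoprotein handling the lipid transfer gene Pltp was at 341, 329 and 382 in WT_HFD and 85.9, 78.6 and 88.3 in WT_NCD (2.04), and the scavenger receptor gene Msr1 and the cholesterol exporter gene Abcg1 rose by 2.49 and 1.62. Apoe, which carries cholesterol, went the other way at 1186, 1343 and 965 in WT_HFD and 2331, 2379 and 2565 in WT_NCD (-1.07). In the phospholipid list the cardiolipin synthase gene Crls1 fell by 0.85 and the phospholipase gene Pla2g7 rose by 1.59, among 10 higher and 6 lower of 29.

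Many genes of steroid and retinoid action were called, in both directions. In the steroid list 9 of 18 fell and 4 rose. Fkbp5, a gene switched on by glucocorticoids, was at 8.24, 8.23 and 8.57 FPKM in WT_HFD and 24.5, 29.5 and 33.1 FPKM in WT_NCD (-1.67, SE 0.15, limma adjusted p = 1.08e-05). Hsd11b1, the enzyme that regenerates active glucocorticoid, was at 28.5, 33.4 and 19.4 in WT_HFD and 96.1, 109 and 122 in WT_NCD (-2.0). The oestrogen receptor gene Esr1 fell by 1.18. The diets did not overlap in any of these 3 genes. In the retinoid list the retinaldehyde dehydrogenase gene Aldh1a1 fell by 1.43, while the retinol dehydrogenase gene Dhrs9 was at 7.28, 6.34 and 14.5 in WT_HFD and 0.142, 0.216 and 0.101 in WT_NCD. The counts were 8 higher and 12 lower of 25. Of 17 other nuclear receptor genes 12 fell and none rose, among them the thyroid hormone receptor gene Thra (-0.93).

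The circadian clock genes shifted in 2 opposite blocks. The clock is a loop in which Arntl, Clock and Npas2 switch on the Per, Cry and Nr1d repressors and the output factors Dbp, Tef and Hlf. Of 19 genes 4 rose and 12 fell (median -1.23). The activator gene Arntl was at 5.85, 4.82 and 7.59 FPKM in WT_HFD and 1.51, 1.74 and 1.36 FPKM in WT_NCD (1.47, SE 0.19, limma adjusted p = 0.000126). The output gene Dbp (NCBI gene 13170, chromosome 7, 45705100 to 45710203) was at 12.5, 13.3 and 3.8 in WT_HFD and 59, 58.3 and 75.1 in WT_NCD (-2.73, SE 0.41, limma adjusted p = 0.000303). Per1 was at 5.05, 5.64 and 6.06 in WT_HFD and 16.6, 19.1 and 20.6 in WT_NCD (-1.58), and Per3 at 3.58, 4.78 and 2.19 in WT_HFD and 15.3, 16 and 18.5 in WT_NCD (-2.0). In all 4 genes the diets did not overlap. WT_HFD 4 lay farthest from chow in Arntl, Dbp and Per3, and closest to it in Per1. It was also the farthest in Nr1d1, Nr1d2, Hlf and Nfil3. Nr1d1 and Nr1d2 fell by 1.99 and 1.25 and Hlf by 1.73, and Nfil3, which opposes Dbp, rose by 1.51. Cry1 (-0.016) and Bhlhe40 (0.044) were not called. The hour of tissue collection is not given in the labels, so diet and a difference in collection hour cannot be told apart for these genes. In the KO libraries the clock list had 3 of the 4 rises and 11 of the 12 falls called in the same direction, with a median of -0.80. Of 16 clock genes with a RefSeq promoter 5 held the E-box CACGTG (31.2%, against 32.2% of the lysosomal list and 11.6% of all tested), and 1 held the D-box TTATGTAA.

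**Figure D3:**
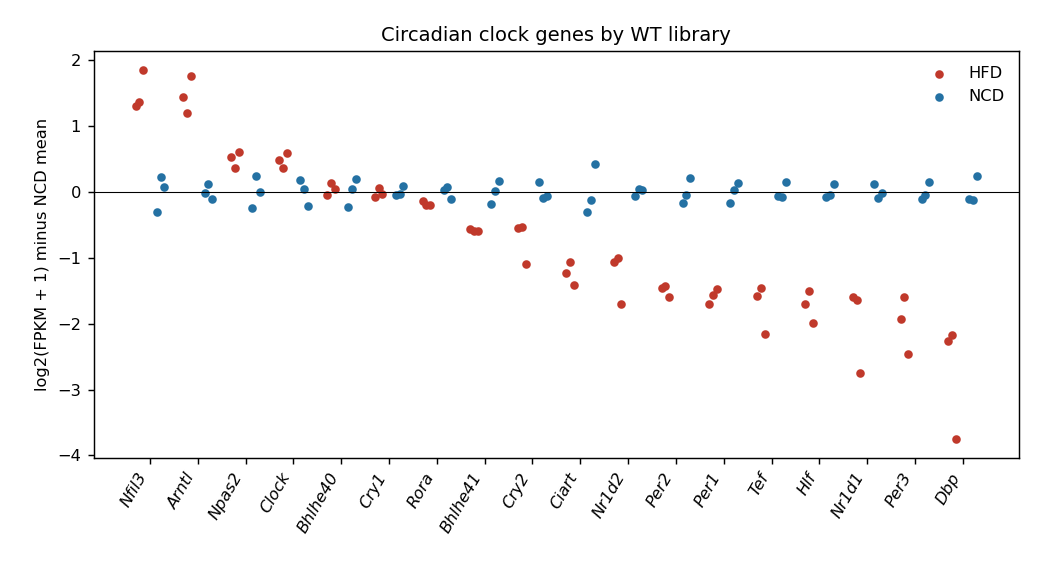
18 clock genes in each WT library, as log2(FPKM + 1) minus the mean of the 3 chow libraries (HFD libraries left in red, NCD right in blue). Nfil3, Arntl, Npas2 and Clock lie above 0 in every HFD library and the Per, Nr1d and output genes below it.

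Leukocyte and adipocyte transcription factors moved apart. Of 33 myeloid and inflammatory factors 27 rose and none fell. Spi1, the master regulator of macrophages, was at 42.7, 39.8 and 61.1 FPKM in WT_HFD and 7.63, 5.25 and 5.43 FPKM in WT_NCD (2.77), and Irf8 rose by 2.46. Of 24 adipocyte-lineage factors 16 fell and 1 rose. Klf15, a metabolic regulator that glucocorticoids induce, was at 7.58, 7.76 and 4.33 in WT_HFD and 29.8, 27.8 and 29.1 in WT_NCD (-2.02), and Nfia and Ebf2 fell by 1.12 and 0.97. The rise was Cebpb (0.98), which leukocytes use as well. In the Hox genes, which mark the body position of a depot, 16 of 24 members fell and none rose (median -0.64). Hoxa7 was at 2.48, 1.75 and 1.35 in WT_HFD and 6.86, 6.25 and 6.41 in WT_NCD (-1.41), and Hoxc8, the most abundant, was at 28.7, 27.8 and 17.9 in WT_HFD and 64.3, 52.5 and 49.9 in WT_NCD (-1.15). Among families of shared symbols, 23 of 316 zinc finger (Zfp) genes rose and 101 fell, though the median change was only -0.10.

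Detoxification and antioxidant genes fell more often than they rose. In the antioxidant list 21 of 39 fell and 7 rose (median -0.39). The glutathione transferase gene Gsta3 (NCBI gene 14859, chromosome 1, 21240565 to 21265575) lies inside the predicted gene Gm28836 and was at 16, 22.6 and 11.8 FPKM in WT_HFD and 129.6, 137 and 118 FPKM in WT_NCD (-2.9, SE 0.20, limma adjusted p = 1.88e-06). Gstt1, Gpx3, the secreted glutathione peroxidase gene, and Gsta4 fell by 1.86, 1.9 and 2.82. Hmox1, which breaks down haem, was at 74, 79.9 and 92.8 in WT_HFD and 18.7, 17.6 and 18.9 in WT_NCD (2.09), the largest rise of the list. In iron handling the phagosomal transporter gene Slc11a1 and the iron reductase gene Steap3 rose by 2.53 and 1.1, and the transferrin gene Trf was at 652, 756 and 543 in WT_HFD and 1388, 1304 and 1279 in WT_NCD (-1.04). Ferritin heavy chain, Fth1, stayed at 1460.3, 1512 and 1612 in WT_HFD and 1489, 1514 and 1569.8 in WT_NCD and was not called, unlike Ftl1. In the drug metabolism list 19 of 42 fell, including Por (-1.36), the electron donor of all microsomal P450 enzymes, and 7 rose, including Maoa (0.82). Maob, its relative, had -1.6. Cyp2f2 was at 0.237, 3.16 and 0.705 in WT_HFD and 12, 25.3 and 18.5 in WT_NCD (-3.19), highest in WT_NCD 2, the library with most liver transcripts.

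Amino acid and nucleotide genes moved singly. Slc6a6, the taurine transporter gene, was at 62, 73.9 and 72.6 FPKM in WT_HFD and 15.6, 17.2 and 15.2 FPKM in WT_NCD (2.05, SE 0.091, limma adjusted p = 2.06e-07), while Cdo1 and Csad, 2 enzymes of taurine synthesis, fell by 1.49 and 1.02. The exporter gene Slc43a1 fell by 2.11. Of 29 amino acid transporter genes 14 rose and 5 fell. Phgdh, the first enzyme of serine synthesis, was at 92.2, 80.3 and 79.8 in WT_HFD and 194, 169 and 172 in WT_NCD (-1.08), and the spermine synthase gene Sms rose by 1.15. In nucleotide metabolism Adssl1 was at 17.9, 17.2 and 23.2 in WT_HFD and 2.04, 1.89 and 1.74 in WT_NCD (2.81), and Aprt and Entpd1 rose by 1.38 and 1.14. Nt5e, which forms extracellular adenosine, fell to 0.577, 0.828 and 0.181 in WT_HFD, against 2.57, 5.66 and 5.47 in WT_NCD. Uox and Tdo2, which are liver enzymes, averaged 2.08 ± 2.17 and 1.98 ± 1.89 in WT_HFD and 11.6 ± 11.5 and 8.05 ± 5.89 in WT_NCD, with the highest values of both in WT_NCD 2 and overlap between the diets. Both lost their call without WT_NCD 2, WT_NCD 4, WT_HFD 1 or WT_HFD 4 (adjusted p up to 0.18 and 0.151). Neither was called with the liver markers as a covariate (adjusted p = 0.373 and 0.0847). Among sugar and organic ion transporters the glucose transporter genes Slc2a3 and Slc2a12 fell by 1.52 and 1.17.

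Genes of the cytoskeleton mostly rose. Of 32 actin, tubulin and filament genes 26 rose and 1 fell (median 0.96). Lcp1, the leukocyte actin-bundling protein gene, was at 159.6, 149 and 234 FPKM in WT_HFD and 19.8, 16.9 and 14.4 FPKM in WT_NCD (3.32), and Capg and Cotl1 rose by 2.96 and 2.42. Regulators of small GTPases had 24 higher and 3 lower of 32, led after Rgs1 by Rab7b (2.54), Rgs18 (2.0) and Rgs10 (1.92). Tbc1d4, the Akt target that controls glucose transporter traffic, fell by 0.38. Among the symbol families 16 of 31 Arhgap genes, 18 of 28 sorting nexin (Snx) genes and 14 of 27 kinesin (Kif) genes rose. Cell death genes rose in 18 of 28 and fell in 1. The inflammatory caspase gene Casp1 was at 26.1, 26.6 and 28.4 in WT_HFD and 6.83, 6.53 and 7.13 in WT_NCD (1.84), and the survival gene Bcl2a1b, one of several near-identical copies, rose by 2.97. Lgals3, which encodes the lectin galectin-3, was at 605, 548 and 923 in WT_HFD and 65.3, 49.8 and 56.4 in WT_NCD (3.54), while the adipocyte galectin gene Lgals12 fell by 1.66 and S100a1 by 1.37.

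Matrix genes differed by kind. Of 26 collagen genes 18 rose and 3 fell. Col12a1, a collagen that sits on fibrils, was at 3.81, 3.41 and 4.75 FPKM in WT_HFD and 0.393, 0.445 and 0.306 FPKM in WT_NCD (1.85), and the pericellular Col6a2 was at 336, 269 and 367 in WT_HFD and 118, 78.1 and 80.0 in WT_NCD (1.82). Basement membrane chains split: Col4a1 and Col4a2 rose by 1.1 and 1.14, and Col4a4 and Col4a6, forms known from kidney and other epithelia, fell by 1.13 and 0.81. The small proteoglycan gene Lum was at 144, 146 and 164 in WT_HFD and 21.6, 23.6 and 23 in WT_NCD (2.69), and Dcn, the most abundant of the list, was at 668, 695 and 559 in WT_HFD and 642, 637 and 691 in WT_NCD and was not called. The hyaluronan receptor gene Cd44 rose by 2.93. Among matricellular genes Postn (1.79) and Mfap2 (1.55) rose, while Ccn1, Ccn2 and Ccn3 fell by 0.96, 1.43 and 1.07. Of 30 protease and inhibitor genes 21 rose and 4 fell. Mmp3, the stromal matrix metalloprotease gene, was at 9.94, 14.7 and 14.6 in WT_HFD and 0.571, 0.40 and 0.331 in WT_NCD (3.28), and the protease inhibitor genes Timp3 and Timp4 fell by 1.49 and 2.97. Integrin chains of leukocytes rose, Itgb2 by 3.36 and Itga4 by 1.52, among 10 higher and 2 lower of 18.

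Genes of secreted signals changed in both directions. In TGF-beta and BMP signalling 13 of 37 genes rose and 10 fell, against 25.4% and 25.3% of all tested genes. The ligand gene Tgfb1 averaged 42.6 ± 5.58 FPKM in WT_HFD and 17.9 ± 3.07 FPKM in WT_NCD (1.21), while Tgfb2, Tgfb3 and Bmp4 fell by 0.44, 0.55 and 1.13. In the Wnt list Mest, the imprinted gene linked to fat cell size, was at 385, 325 and 272 in WT_HFD and 40.2, 35.7 and 52.5 in WT_NCD (2.91, SE 0.25), and Axin2, a target of the pathway, fell by 1.0. The counts there were 7 higher and 8 lower of 28, shares near those of all tested genes. Growth factor genes fell more often, 16 against 8 of 40. Fgf2 was at 3.69, 4.19 and 4.18 in WT_HFD and 17.5, 14 and 15.5 in WT_NCD (-1.73), Met and Igfbp2 fell by 1.15 and 1.76, and Pdgfra, the receptor that marks progenitors, rose by 1.01. The vessel growth factor genes Vegfa and Vegfb fell by 0.83 and 1.23, whereas Hif1a, the hypoxia-inducible factor gene, rose by 1.13. Among hormones of fat, Metrnl was at 23.9, 22.7 and 32.9 in WT_HFD and 6.08, 4.53 and 5.84 in WT_NCD (2.08), and Angptl8, which lies inside Dock6, averaged 24.9 ± 8.41 in WT_HFD and 6.58 ± 1.52 in WT_NCD. Nnat, an imprinted gene inside Blcap, was at 181, 207 and 97.4 in WT_HFD and 632, 634 and 732 in WT_NCD (-2.1), and Rbp4, the retinol carrier gene, at 176, 209.7 and 144 in WT_HFD and 495, 432 and 401 in WT_NCD (-1.33).

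Receptor genes for nucleotides and oxytocin were among those that rose. P2ry6 was at 21.9, 23.5 and 31.8 FPKM in WT_HFD and 5.34, 4.17 and 3.78 FPKM in WT_NCD (2.29), and P2rx7 and P2rx4 rose by 1.63 and 1.41. The oxytocin receptor gene Oxtr was at 61.7, 47.4 and 38.3 in WT_HFD and 10.7, 8.13 and 10.7 in WT_NCD (2.19, SE 0.21). The fatty acid receptor gene Ffar4 and the neuropeptide Y receptor gene Npy1r, both known from adipocytes, fell by 1.64 and 1.05, and the growth hormone receptor gene Ghr by 0.76. Of 38 members 8 rose and 12 fell, but without WT_HFD 4 9 rose and 6 fell. In axon guidance Sema4d was at 9.38, 10.2 and 17.4 in WT_HFD and 1.14, 1.16 and 0.995 in WT_NCD (2.62), Nrp2 rose by 1.19 and Sema5a fell by 1.0. Among ion channels the potassium channel gene Kcnj2 was at 5.84, 5.94 and 6.21 in WT_HFD and 0.416, 0.511 and 0.564 in WT_NCD (2.23, limma adjusted p = 4.08e-08). It was tested only through its HFD values. The stretch-activated channel gene Piezo1 rose by 0.78. Scn7a, the sodium channel of nonmyelinating Schwann cells, fell by 1.29. Atp1b1 was at 2.27, 2.18 and 1.77 in WT_HFD and 7.56, 33.3 and 20.6 in WT_NCD, highest in the libraries with ciliated epithelium.

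Coagulation and complement genes went both ways. F7, which encodes coagulation factor VII, was at 14.6, 13.1 and 20.8 FPKM in WT_HFD and 0.375, 1.01 and 0.601 FPKM in WT_NCD (3.36), and the inhibitor gene Tfpi2 rose by 1.75. Thbd, the thrombin receptor of the vessel wall, was at 21.6, 23.1 and 18.5 in WT_HFD and 143, 87.5 and 96.2 in WT_NCD (-2.29, SE 0.18). Of 29 complement genes 14 rose and 6 fell. The receptor gene C3ar1 was at 46.6, 43.5 and 62.2 in WT_HFD and 4.67, 3.39 and 2.89 in WT_NCD (3.48), while C2, a protease of the classical pathway, was at 17.8, 18.3 and 13.6 in WT_HFD and 71.4, 62.9 and 72.8 in WT_NCD (-2.0). Of 30 paired leukocyte receptors 22 rose and 1 fell, the ligand gene Cd200 (-0.49). The lectin genes Clec12a and Clec7a rose by 3.44 and 3.41, and Cd200r1, the receptor for Cd200, was at 19.1, 17.7 and 26.5 in WT_HFD and 2.25, 1.47 and 1.65 in WT_NCD (2.98).

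Markers of other leukocytes were low and uneven. Il7r, a cytokine receptor gene of T cells and other lymphoid cells, was at 20.2, 16.8 and 30.1 FPKM in WT_HFD and 0.813, 0.982 and 0.877 FPKM in WT_NCD (3.59), but the T cell receptor subunit gene Cd3e was at 1.01, 0.40 and 0.299 in WT_HFD and 0.85, 0.485 and 0.472 in WT_NCD and was not called. Of 21 listed T and NK cell genes only 9 reached the level needed for a test, and 5 of these rose. Il7r was under 1 FPKM in every chow library of both genotypes and was tested only through its HFD values. Of 10 B and plasma cell genes 2 rose, Cd22 (1.26) and Sdc1 (1.29), while the defining Ms4a1 had -0.35 and was not called. Dendritic cell genes had 6 higher and 4 lower of 12, or 3 and 4 without WT_HFD 4, with Cd209a lower (-0.87) and Ccr7 higher (0.66). The neutrophil protein gene S100a8 was at 40.7, 42.9 and 42 in WT_HFD and 4.66, 5.04 and 5.68 in WT_NCD (2.81), and Mmp9, another neutrophil product, fell by 1.79. The mast cell protease genes Cpa3, Cma1 and Mcpt4 rose by 1.01, 0.69 and 0.60, Mcpt4 no longer without WT_NCD 2, WT_NCD 4, WT_HFD 1 or WT_HFD 2 (adjusted p up to 0.119).

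Vessels and coverings of the fat lobe differed from each other. Of 18 blood endothelial genes 1 fell and none rose. The gene was Gpihbp1 (-0.80), the anchor of lipoprotein lipase, which was not called without WT_NCD 4 (adjusted p = 0.0526) or without WT_HFD 4 (0.082). Pecam1, the general endothelial marker, was at 69.1, 75 and 50.1 FPKM in WT_HFD and 66, 56.4 and 56.4 FPKM in WT_NCD. Of 16 smooth muscle and pericyte genes 8 fell and 2 rose, with 4 falls without the 3 ciliated chow libraries and 5 with the mesothelial covariate. The contractile genes Tagln and Myl9 fell by 1.63 and 1.41, and the rises were the pericyte genes Pdgfrb (0.93) and Cspg4 (1.22). The mesothelial keratin gene Krt19 was at 5.68, 2.75 and 2.68 in WT_HFD and 19.5, 23.9 and 16.6 in WT_NCD (-2.2), and all 11 tested mesothelial markers were called lower. In the KO libraries 1 of them was called lower, and the difference between the genotypes was called for none of them. The summed mesothelial FPKM in KO was 75.1, 65.3 and 93.4 on HFD and 238, 73.5 and 94.9 on NCD. In WT that sum was 72.5, 47.1 and 36.5 on HFD and 158, 193 and 137 on NCD. Of 5 tested red blood cell markers 4 were called lower, although the libraries overlapped in all of them.

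Genes used to normalise qPCR were not equally steady. Of 25 tested reference genes 8 rose and 3 fell. Gusb, a lysosomal hydrolase gene, was at 93.6, 88 and 122 FPKM in WT_HFD and 28.1, 20.7 and 22.2 FPKM in WT_NCD (2.05, SE 0.15). The actin gene Actb was at 1269, 1211 and 1588 in WT_HFD and 754, 748 and 753 in WT_NCD (0.84), and B2m at 2356, 2408 and 2044 in WT_HFD and 1365, 1275 and 1328 in WT_NCD (0.77). Ywhaz, Hprt, Pgk1 and Polr2a rose by 0.47, 0.47, 0.36 and 0.28, and Sdha fell by 0.62. Polr2a lost its call without WT_NCD 2, WT_NCD 4 or WT_HFD 4. Ppia was at 770.2, 788 and 851 in WT_HFD and 803, 747 and 778 in WT_NCD (0.049, SE 0.075), and Tbp at 6.93, 7.61 and 6.81 in WT_HFD and 6.34, 7.93 and 7.97 in WT_NCD (-0.047, SE 0.081). Ppia, Tbp, Rplp0 (0.022), Gapdh (-0.067), Ipo8 (0.028) and Nono (0.078) were not called. FPKM is itself a relative scale, so these values show steadiness relative to the rest of each library.

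**Figure D4:**
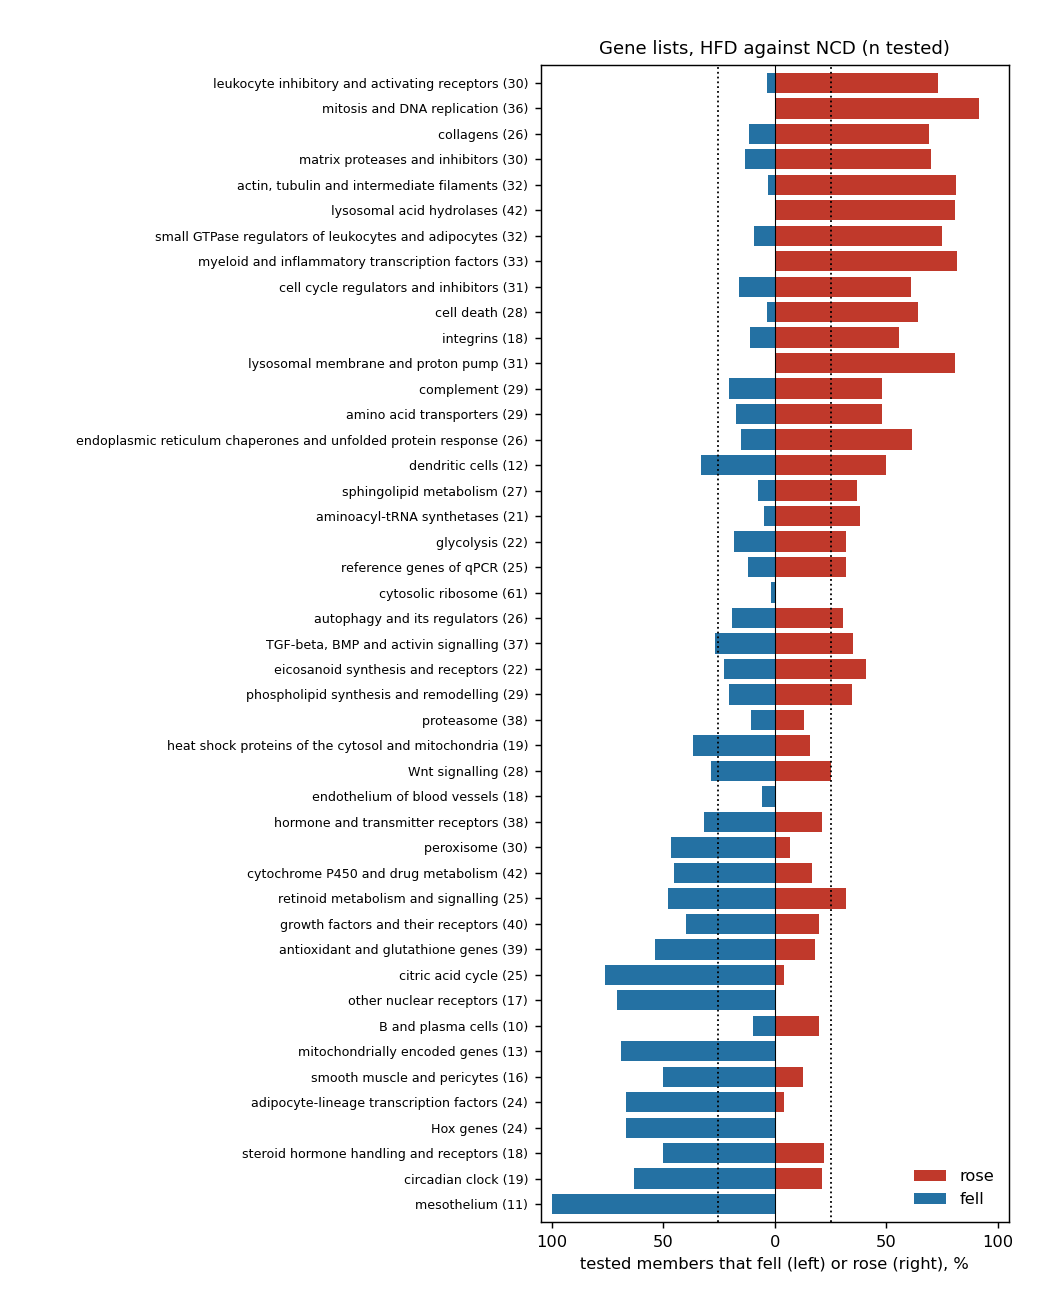
Share of tested members that rose (red, to the right) and fell (blue, to the left) on HFD for 45 gene lists of at least 10 tested genes named in the text, sorted by the median change; dotted lines mark the shares over all tested genes, 25.4% higher and 25.3% lower. Leukocyte receptors, mitosis and collagens lie at the top, and the mesothelial, clock and steroid lists at the bottom.

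The KO libraries give the same contrast in other animals, and the diet contrasts of the genotypes share no library. Both contrasts use the same estimate of the spread per gene, so a call in KO is not independent of the call in WT. Of the 15 steepest rises 15 were called higher in KO, where 34.6% of all tested genes were called higher. Of the 15 steepest falls 12 were called lower in KO, against 26.2% of all genes. The other 3 were Calml3, Ptgds and Krt8, with adjusted p = 0.0518, 0.0629 and 0.0701 in KO. Slc5a7 was at 29.1, 26.4 and 21.9 FPKM in KO_HFD and 0.404, 0.347 and 1.03 FPKM in KO_NCD (change 4.09), and Agt was at 13.3, 12.9 and 6.81 in KO_HFD and 141, 246 and 112 in KO_NCD (-3.77). All 21 genes nearly silent on chow were called higher in KO as well. The test of WT minus KO diet response was called for 0.272% of tested genes. It was called for the mast cell genes Cpa3, Cma1 and Mcpt4, whose rises were 3.08, 2.63 and 2.68 in KO. It was called for Wfdc21, a secreted protein gene of the whey acidic protein family, which was at 97.9, 108 and 114 in WT_HFD and 26.2, 40.9 and 30.3 in WT_NCD, and at 59.9, 68.1 and 45.5 in KO_HFD and 60.9, 60.9 and 61.2 in KO_NCD. It was also called for Hspa1b and Tgfb2 among the genes named above, and for none of the 30 steepest changes.

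**Figure D5:**
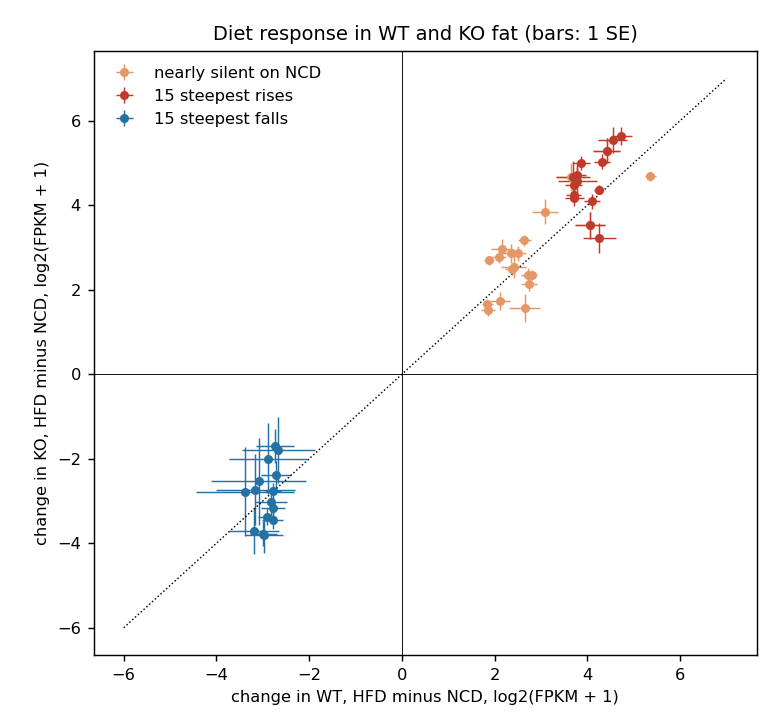
Change with diet in KO fat (vertical) against the change in WT fat (horizontal), as log2(FPKM + 1) differences with 1 SE, for the 30 steepest changes that the naming rule kept and the 21 genes nearly silent on chow. Points above the diagonal on the right moved further in KO; all rises in WT lie above 0 in KO, and all falls below it.

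The HFD animals were not equally far from chow. Between libraries of 1 diet the median absolute difference of log2(FPKM + 1) over tested genes was 0.0781 to 0.144, and between diets 0.261 to 0.398. WT_HFD 4 lay 0.340 from WT_NCD 1, while WT_HFD 1 and WT_HFD 2 lay 0.272 and 0.261 from it. Among called genes WT_HFD 4 held the value farthest in the called direction in 69.7%, WT_HFD 1 in 16.5% and WT_HFD 2 in 14%. Vsig8, an immunoglobulin family gene, was at 8.91, 8.95 and 24.1 FPKM in WT_HFD and 0.0555, 0.083 and 0.086 FPKM in WT_NCD, and the adipocyte marker sum was 14489, 14679.5 and 11300.1 in WT_HFD and 20192, 19960.2 and 19431 in WT_NCD, lowest in WT_HFD 4. Without WT_HFD 4 the count of called genes was 5849. Itgad, Slc5a7 and Gpr50, by contrast, differed among the HFD libraries by less than 1.5 times.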

How the data were processed

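Levels are the FPKM values that the authors deposited, 1 column per library for 30268 genes. Per the submitters' processing notes the tools include StringTie 1.3.4d, HISAT2 2.1.0, Trimmomatic, DESeq2 and bcl2fastq 2.20.0, with the build mm10. Their roles are not stated. Per the labels' protocols the kit was TruSeq Stranded mRNA. FPKM keep no read counts, so depth is unknown, no counting interval can be given, and each value is relative to its library. The summed FPKM was not constant, at 405556, 413425 and 394105 in WT_HFD and 435127, 436494 and 429757 in WT_NCD. Gene identifiers were named from RefSeq (GRCm38.p6), which matched 30196.

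log2(FPKM + 1) of genes with at least 1 FPKM in 3 of the 12 libraries was fitted in limma 3.58.1 (R 4.3.3) with 4 group means and a trend of the variance, and p-values were adjusted by Benjamini-Hochberg over all tested genes. They measure the spread between these libraries. Contrasts were WT_HFD minus WT_NCD, KO_HFD minus KO_NCD and their difference. The fit was tested on simulated data. Alternatives were another pseudocount, filters, scalings, the WT libraries alone, no trend, marker covariates, mitochondrial transcripts taken out, and each WT library left out.

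Members and lists were chosen with earlier results of these data known. Genes were named by rule. The rule took the 15 highest and 15 lowest called changes among genes whose WT diets did not overlap. For these changes it passed over lists of best-known macrophage and adipocyte markers and of extremes already described. Lack of overlap in these genes was thus a condition of entry, not a result. The rule also took the 8 largest rises and falls in FPKM and up to 4 called members of each list by p. Last, the rule took all qPCR reference genes, and genes under 0.5 FPKM on 1 diet and at 3 or more on the other. The genes named outside it were chosen after their values were seen: Acp5, Angptl8, Apoe, Arntl, Atp1b1, Atp6v1a, Atp6v1g1, Atp6v1h, Bhlhe40, Bmp4, Ccn1, Ccn2, Ccn3, Cd200, Cd3e, Cdc45, Cdkn1a, Cdkn2c, Cebpb, Col4a1, Col4a2, Col4a4, Col4a6, Cry1, Csad, Cspg4, Dcn, Esr1, Fabp4, Ffar4, Fth1, Gabarapl1, Ghr, Gins2, Gla, Hk2, Hpgd, Hsd11b1, Igfbp2, Lgals12, Maob, Mcm7, Ms4a1, Nfil3, Nnat, Npy1r, Nt5e, Oxtr, Pecam1, Per3, Phgdh, Ptgis, Rbp4, Slc2a12, Tbc1d4, Tdo2, Tgfb2, Tgfb3, Timp3, Top2a, Trf, Uox, Vegfa, Vegfb and Wfdc21. Some genes that the rule names are not reported here.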

Additional observations from a re-analysis of the deposited data

Results flagged for a closer look

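The diet effect differed between the genotypes, by the test of the difference itself (WT change minus KO change, limma, adjusted p under 0.05 over all tested genes), for 6 genes named in the report. The mast cell protease genes Mcpt4, Cpa3 and Cma1 had differences of -2.08, -2.06 and -1.94 (adjusted p = 0.0328, 0.0355 and 0.0305). Mcpt4 was at 20.9, 24.8 and 15.1 FPKM in WT_HFD and 14.4, 13.3 and 10.8 FPKM in WT_NCD, and at 48.2, 50.7 and 46 FPKM in KO_HFD and 9.68, 5.69 and 5.4 FPKM in KO_NCD. The heat shock gene Hspa1b had -0.85 (adjusted p = 0.0358), from changes of -0.73 in WT and 0.12 in KO. Tgfb2 had -0.81 (adjusted p = 0.0449), from -0.44 in WT and 0.37 in KO, where the sign was opposite. Wfdc21 was the 1 gene of the 6 whose rise was larger in WT, with a difference of 1.8 (adjusted p = 0.0248).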

How the results depend on the processing

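Without the 3 chow libraries rich in ciliated epithelium 3878 genes were called, 2135 higher and 1743 lower. With the mesothelial markers as a covariate 3808 were called, 2281 higher and 1527 lower, so that 3636 of the 7279 calls remained. With a pseudocount of 0.1 the genes called with a change of at least 1 numbered 2555, against 1617 with 1. The cause of these shifts was not tested. Leaving out 1 WT library at a time gave 5849 to 7166 called genes. COX1 turned to 0.15 with quantile normalization (adjusted p = 0.43), and Krt8 to 0.10 with the mesothelial covariate (0.944). Of 236 called genes named in the text, 226 kept their call in all 6 fits that leave out a WT library, and 194 under every alternative. The liver marker covariate, chosen after seeing the data, left 5287 called genes. No scaling moved the share of higher calls by more than 10 percentage points. Depth is unknown, so low FPKM values carry an unknown counting error. No paired analysis was possible because the column headers carry numbers that were not tied to the replicate numbers of the labels, and mice on different diets are different animals.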
